A study of Mus musculus with 9 samples.

Results

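The HoxD cluster is 1 of the 4 mammalian clusters of Hox genes, which code for homeodomain transcription factors. The genes studied here were Hoxd1, Hoxd3, Hoxd8, Hoxd9 and Hoxd13. They were followed through every probe set of the expression table that is annotated to 1 of these genes alone, which gave 7 probe sets out of 45101 in all, read on all 9 arrays. Hoxd1 and Hoxd3 had 1 probe set each, as did Hoxd9, while Hoxd8 and Hoxd13 were each read by a pair. The series asks how the caudal homeobox factor Cdx2, together with signalling factors, sets the Hox identity of motor neuron progenitors.

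All groups were made from the mouse embryonic stem (ES) cell line Ainv15, which carries a doxycycline-inducible Cdx2 gene with a V5 tag, so the construct was present in the controls too. ES cells at day 0, untreated and grown with LIF over mitomycin-treated fibroblasts, made the first group. The second, called motor neuron cultures here, was day 5 cultures derived through embryoid bodies, to which retinoic acid (RA, 1 µM) and an agonist of hedgehog signalling (SAG, 0.5 µM) were given at day 2. The third, called Cdx2/FGF cultures, was of the same day and had also received a pulse of 2 µg/ml doxycycline on day 3 and basic FGF (100 ng/ml). The protocol text further describes lower doses of RA and agonist given with FGF, without saying which cultures had them. Cdx2, FGF and doxycycline itself came together, and the RA and agonist doses may have differed too, so their effects cannot be told apart. Each group had 3 arrays, and the labels do not say whether these came from separate cultures, so the p-values reflect array-to-array spread alone, and that may be technical.

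Hox genes lie in the order in which they act along the body: genes with low paralog numbers sit at one end of a cluster and are used early and in the hindbrain and neck, and those with high numbers sit at the other end and are used late and caudally. RA switches on the low-numbered end in neural progenitors, while FGF and Cdx factors are known to bring in the central and trunk genes, such as those of paralog groups 8 and 9. In the spinal cord, Hox proteins decide which motor columns and pools form at each level. By annotated start in the GRCm38.p6 gene table, the order on chromosome 2 was Evx2, Hoxd13, Hoxd12, Hoxd11, Hoxd10, Hoxd9, Hoxd8, Hoxd3, Hoxd4 and Hoxd1. Only starts were compared, not whole gene spans, and Hoxd3 and Hoxd4 stood out of paralog order.

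The members responded in 3 ways, and the promoters of the genes that changed between the day 5 cultures are printed here so that they can be set beside the values. They are the 250 bases before the annotated start of Hoxd3, which fell with Cdx2 and FGF, and of Hoxd8 and Hoxd9, which rose; all are on the plus strand, written 5′ to 3′, from RefSeq on build GRCm38.p6. The windows are chr2:74711743-74711992 for Hoxd3, chr2:74704365-74704614 for Hoxd8 and chr2:74697513-74697762 for Hoxd9. Capitals mark exact matches on either strand, a minus-strand match appearing as its reverse complement. The motifs were TTTATG or TTTATT (cores of the kind Cdx proteins bind) and AGGTCA or AGTTCA (half-sites of the kind retinoic acid receptors bind).
Hoxd3: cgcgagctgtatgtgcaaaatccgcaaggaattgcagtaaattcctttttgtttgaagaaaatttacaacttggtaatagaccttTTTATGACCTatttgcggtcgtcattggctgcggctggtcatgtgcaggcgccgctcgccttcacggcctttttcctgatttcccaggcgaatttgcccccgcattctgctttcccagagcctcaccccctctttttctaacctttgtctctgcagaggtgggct
Hoxd8: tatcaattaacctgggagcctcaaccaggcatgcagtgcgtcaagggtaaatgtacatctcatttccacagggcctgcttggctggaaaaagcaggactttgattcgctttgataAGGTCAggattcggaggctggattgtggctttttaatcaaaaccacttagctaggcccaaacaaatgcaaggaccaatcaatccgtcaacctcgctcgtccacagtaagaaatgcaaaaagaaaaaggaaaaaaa
Hoxd9: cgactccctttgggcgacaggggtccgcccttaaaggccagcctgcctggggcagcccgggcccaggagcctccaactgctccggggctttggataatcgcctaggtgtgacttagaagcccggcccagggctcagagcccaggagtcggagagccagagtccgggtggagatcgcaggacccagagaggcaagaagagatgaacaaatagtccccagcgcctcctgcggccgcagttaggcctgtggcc

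In these windows Hoxd3 held TTTATG, ending 159 bases before the start, and AGGTCA on the minus strand, ending 155 bases before it; these 2 matches overlap. Hoxd8 held AGGTCA, 129 bases before the start, and Hoxd9 held none of the 4 motifs. Among 32851 promoter windows of the same length, 10.8% held TTTATG, 18.1% TTTATT, 14.0% AGGTCA and 11.8% AGTTCA. A match is a string of letters and not a measured site, and the deposited expression values say nothing of binding. The windows also differed in base composition, with 49.2% G and C for Hoxd3, 44.4% for Hoxd8 and 65.2% for Hoxd9.

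Values are log2 expression levels, from a floor of 2.17 to 16.12 over the whole table. A level of 4 was taken as the lower limit of measurement: a probe set was tested where it lay over 4 on at least 3 of the 9 arrays, which held for 5 of the 7 HoxD probe sets and for 21557 probe sets in all. Differences are the first-named group minus the second, fitted with limma over all tested probe sets, and a probe set is called higher or lower where the Benjamini-Hochberg adjusted p was below 0.05 and the groups' means lay 1 or more apart. Where arrays of the dimmer group lay under 4, these values were raised to 4 and the fold is written as a lower bound.

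The labelled cell types were checked on marker genes. All 10 ES markers, among them Pou5f1 and Nanog, were lower in motor neuron cultures than in ES cells, and 9 of the 10 lay under 4 on every day 5 array. These 9 entered the test through the ES arrays alone, so they could only come out lower. Of 6 tested motor neuron and ventral progenitor markers, 6 were higher in motor neuron cultures than in ES cells. Of these, Lhx3, Mnx1, Nkx6-1 and Slc18a3 had no ES value above 4, so no lower call above that limit was possible. Chat, the acetylcholine-synthesizing enzyme gene, was under 4 on all arrays. Cdx2 (probe set 1422074_at) read 2.17 to 2.24 on the ES and motor neuron arrays and 8.27, 8.99 and 8.59 in Cdx2/FGF cultures. The ES arrays stood apart in several control probe sets, and within each transcript more at the 5′ end than at the 3′ end. The 5′ probe set of the transferrin receptor averaged 3.64 there, against 11.83 in motor neuron and 11.01 in Cdx2/FGF cultures, while its 3′ probe set averaged 9.89, 10.33 and 9.39. For beta-actin the 5′ means were 11.7, 14.57 and 14.55, and the 3′ means 13.77, 14.53 and 14.5. For Gapdh they were 14.15, 14.41 and 14.6 at the 5′ end and 14.96, 15.03 and 15.13 at the 3′ end. For 18S ribosomal RNA they were 4.1, 15.05 and 14.94 at the 5′ end and 6.35, 15.48 and 15.38 at the 3′ end. The part of these shifts in any comparison with ES cells, including those of the Hoxd8 probe sets, was not tested.

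**Figure D1:**
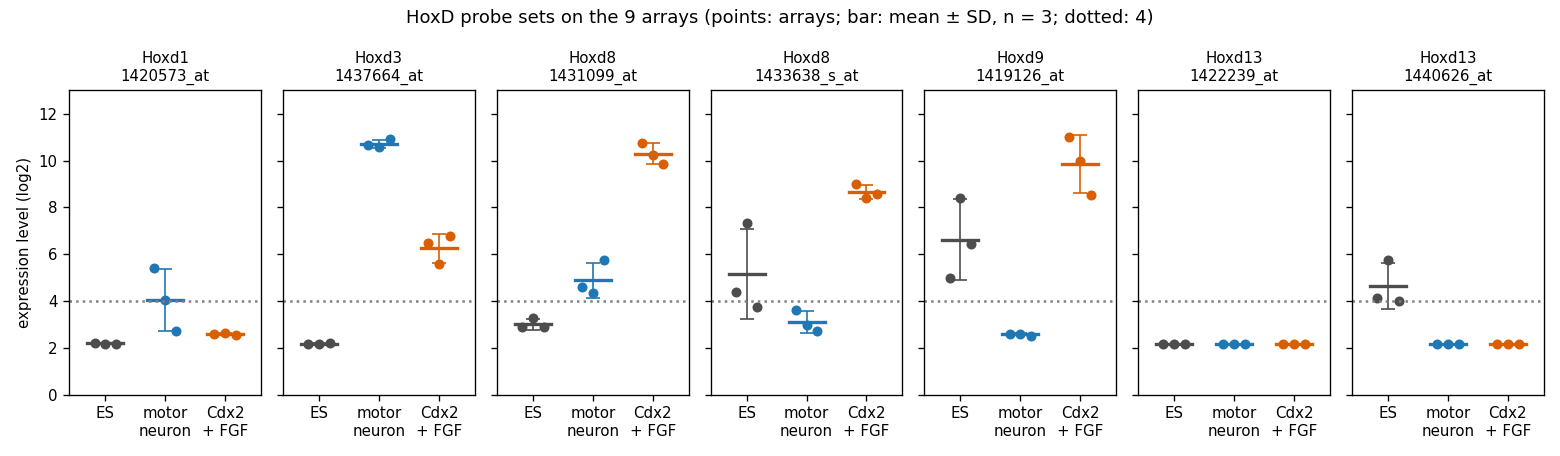
Expression level (log2) of the 7 HoxD probe sets on each of the 9 arrays, 1 panel per probe set in order of paralog number; points are arrays, thick lines are means, bars are SD over 3 arrays and the dotted line is the limit of 4. Hoxd3 peaks in the motor neuron cultures, Hoxd8 and Hoxd9 in the Cdx2/FGF cultures, and Hoxd13 leaves the floor of 2.17 only on ES arrays and only for 1440626_at.

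Hoxd3, a neck-level Hox gene of paralog group 3, was switched on in motor neuron cultures and was less abundant once Cdx2 and FGF were given. Its probe set 1437664_at lay at 2.17, 2.17 and 2.2 before differentiation, reached 10.65, 10.59 and 10.93 in motor neuron cultures, and stood at 6.46, 5.57 and 6.77 after Cdx2 and FGF. The 3 groups did not overlap, with ES cells at the floor, motor neuron cultures highest and Cdx2/FGF cultures between them. Over ES cells it rose at least 106-fold in motor neuron cultures (log2 difference 8.54, SE 0.31, limma adjusted p = 2.2e-08). From motor neuron to Cdx2/FGF cultures it fell 22-fold (log2 difference -4.46, SE 0.31, limma adjusted p = 8.79e-06). It was still at least 4.8-fold above ES cells there (log2 difference 4.08, limma adjusted p = 2.73e-06). All ES values lay under 4, so the probe set passed the filter through day 5 arrays. No lower call above that limit against ES cells was possible. In cultures of mixed cells, fewer cells that express a gene and less RNA per cell cannot be told apart.

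The fall of Hoxd3 stood beside a fall of neuronal genes. Of 8 pan-neuronal markers, 7 were lower in Cdx2/FGF cultures than in motor neuron cultures and 0 were higher, with a median log2 difference of -4.11. Their summed level (log2 of the sum of linear values) was 16.23 to 16.61 in motor neuron cultures and 13.09 to 13.32 in Cdx2/FGF cultures. Of 6 tested motor neuron and ventral progenitor markers 4 were lower and 0 higher, and their summed level went from between 14.12 and 14.33 to between 12.92 and 13.01. The progenitor factor gene Nkx6-1 stood at 12.04 in motor neuron cultures and 12.06 in Cdx2/FGF cultures. The part of these shifts in the Hoxd3 values was not tested.

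Hoxd8, a trunk-level gene of paralog group 8, rose with Cdx2 and FGF in both of its probe sets. The ES arrays had 2.87, 3.26 and 2.87 for probe set 1431099_at, the motor neuron arrays 4.61, 4.32 and 5.73, and the Cdx2/FGF arrays 10.77, 10.24 and 9.87. The Cdx2/FGF arrays lay far above all others. The rise over motor neuron cultures was 42.4-fold (log2 difference 5.41, SE 0.39, limma adjusted p = 1.17e-05). That over ES cells was at least 78.4-fold (log2 difference 7.3, limma adjusted p = 2.88e-07). All ES values lay under 4, so no lower call above that limit against ES cells was possible.

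For the other Hoxd8 probe set, 1433638_s_at, the ES arrays gave 4.38, 7.35 and 3.74, the motor neuron arrays 3.62, 2.99 and 2.7, and the Cdx2/FGF arrays 8.98, 8.39 and 8.57. ES array 2 stood well above the other arrays without Cdx2. From motor neuron to Cdx2/FGF cultures it rose at least 25.1-fold (log2 difference 5.55, SE 0.8, limma adjusted p = 0.000801). All motor neuron values lay under 4, so no lower call above that limit was possible in this comparison. The rise over ES cells was at least 10.6-fold (log2 difference 3.49, adjusted p = 0.00329), or at least 22-fold without ES replicate 2 and 6.87-fold without ES replicate 3.

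The Hoxd8 probe sets parted between ES cells and motor neuron cultures. Set against ES cells, 1431099_at was called higher in motor neuron cultures (log2 difference 1.89, SE 0.39, limma adjusted p = 0.00182). By contrast, 1433638_s_at was called lower (log2 difference -2.06, SE 0.8, limma adjusted p = 0.0402). The first lay under 4 on all ES arrays and the second on all motor neuron arrays. Neither could be called the other way above that limit. The fall of 1433638_s_at was at least 2.37-fold, a bound of 1.14-fold without ES replicate 2 and 3.65-fold without ES replicate 3. The gap between the probe sets within an array (1431099_at minus 1433638_s_at) was -1.52, -4.1 and -0.88 on the ES arrays against 0.99, 1.33 and 3.04 on the motor neuron arrays. These did not overlap, with a difference of 3.95 and an exact two-sided permutation p of 0.1, the smallest that 3 arrays against 3 can give. On the ES arrays 1431099_at, and on the motor neuron arrays 1433638_s_at, lay under 4 throughout; with such values raised to 4 the difference was 2.13, with the same p in the exact permutation test. Between the day 5 cultures the gap differed by -0.14, or by 0.76 with values raised (p = 0.9 and 0.2 in the same exact permutation test). The lower call of 1433638_s_at was lost without ES replicate 2, which left a log2 difference of -0.96, and without any 1 of the 6 day 5 arrays, with a highest adjusted p of 0.111. The higher call of 1431099_at ended with low values raised to 4 (log2 difference 0.89) and with array weights (1.8). These arrays thus did not settle the direction of Hoxd8 between ES cells and motor neuron cultures.

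Hoxd9, a gene of paralog group 9 used at thoracic and lumbar levels, was measured in ES cells, was near the floor in motor neuron cultures and was highest with Cdx2 and FGF. The ES arrays gave 4.97, 8.42 and 6.43 for its probe set 1419126_at, the motor neuron arrays 2.59, 2.59 and 2.52, and the Cdx2/FGF arrays 11.01, 10 and 8.55. The groups did not overlap, although the lowest Cdx2/FGF array lay only slightly above the highest ES array. Against motor neuron cultures the rise was at least 57.7-fold (log2 difference 7.28, SE 0.84, limma adjusted p = 0.000212), and at least 90.6-fold without Cdx2/FGF replicate 3. Against ES cells it was 9.47-fold (log2 difference 3.24, SE 0.84, adjusted p = 0.00672). That value was 17.8-fold without ES replicate 2, 5.37-fold without ES replicate 1 and 14.9-fold without Cdx2/FGF replicate 3. Motor neuron cultures lay at least 6.09-fold below ES cells (log2 difference -4.04, SE 0.84, limma adjusted p = 0.00183), a bound of 3.25-fold without ES replicate 2 and 10.8-fold without ES replicate 1. All motor neuron values lay under 4, so this group could not be called higher than another above that limit.

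The rises of Hoxd8 and Hoxd9 stood beside a rise of mesoderm genes in the Cdx2/FGF cultures. Of 5 tested mesoderm markers, out of 11 with a probe set, 4 were higher than in motor neuron cultures and 0 lower; Meox1, a somite factor gene, read 10.74, 11.04 and 11.06 against 2.17 on each motor neuron array. Meox1 and Foxc1 were over 4 in Cdx2/FGF cultures only, and entered the test through them. Foxc2 too lay under 4 on every motor neuron array, so none of these genes could come out lower. The summed level of the list was 7.45 to 8 in motor neuron cultures and 11.65 to 11.93 in Cdx2/FGF cultures. Tbx6 and Msgn1, which mark presomitic mesoderm, Mesp1 and Mesp2 were under 4 on all arrays of these groups, as were Meox2 and Pax3. The part of such genes' cells in the Hoxd8 and Hoxd9 values was not tested.

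Hoxd13, the gene at the caudal end of the cluster, used in digits and the genital region, stayed at the floor in all day 5 cultures. Probe set 1422239_at read 2.17 on all 9 arrays and was not tested. Probe set 1440626_at read 4.11, 5.76 and 4.01 in ES cells but 2.17 on each of the 6 day 5 arrays. It passed the filter through the ES arrays alone, so it could only come out lower at day 5; the log2 difference was -2.46 in either comparison with ES cells (SE 0.41, adjusted p = 0.000432 for motor neuron and 0.000471 for Cdx2/FGF cultures). With values under 4 raised to 4 it was -0.63 and no longer called. The difference between the day 5 groups was 0, with both at the floor.

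Hoxd1, at the opposite end of the cluster and a gene of paralog group 1, was over 4 on only 2 arrays. Its probe set 1420573_at gave 2.21, 2.18 and 2.17 in ES cells, 5.39, 4.02 and 2.7 after RA and SAG alone, and 2.6, 2.62 and 2.55 when Cdx2 and FGF were added. The motor neuron arrays were highest, and their spread reached almost to the Cdx2/FGF arrays. It was too dim for the test; without the filter on low values, limma gave an adjusted p of 0.055 for motor neuron against ES cells (log2 difference 1.85, SE 0.6) and 0.238 for Cdx2 and FGF against motor neuron cultures (log2 difference -1.44).

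Of the 5 tested HoxD probe sets, 3 were higher and 1 lower in Cdx2/FGF than in motor neuron cultures, where 10.9% of all tested probe sets were called higher and 8.55% lower. Between motor neuron cultures and ES cells 2 were higher and 3 lower, where 31.9% were called higher and 28.0% lower. Between Cdx2/FGF cultures and ES cells 4 were higher and 1 lower, where 31.4% and 24.7% were. Read on the levels themselves, the groups did not overlap for 5, 4 and 5 of the 5 tested HoxD probe sets. The order is motor neuron against ES, Cdx2/FGF against motor neuron and Cdx2/FGF against ES. The shares of all tested probe sets were 75.2%, 60.9% and 74.2%. For Hoxd8 (1433638_s_at), the nearest motor neuron and ES arrays, at 3.62 and 3.74, both lay under 4. The groups of the untested Hoxd1 did not overlap either, but ES and Cdx2/FGF arrays were apart only at levels under 4. Its lowest motor neuron array, at 2.7, also lay under 4, so its separation from both other groups rests on such a value. The 3 comparisons share their arrays. With so few probe sets, some of them passing the filter through the group where they are high, these counts are a description.

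**Figure D2:**
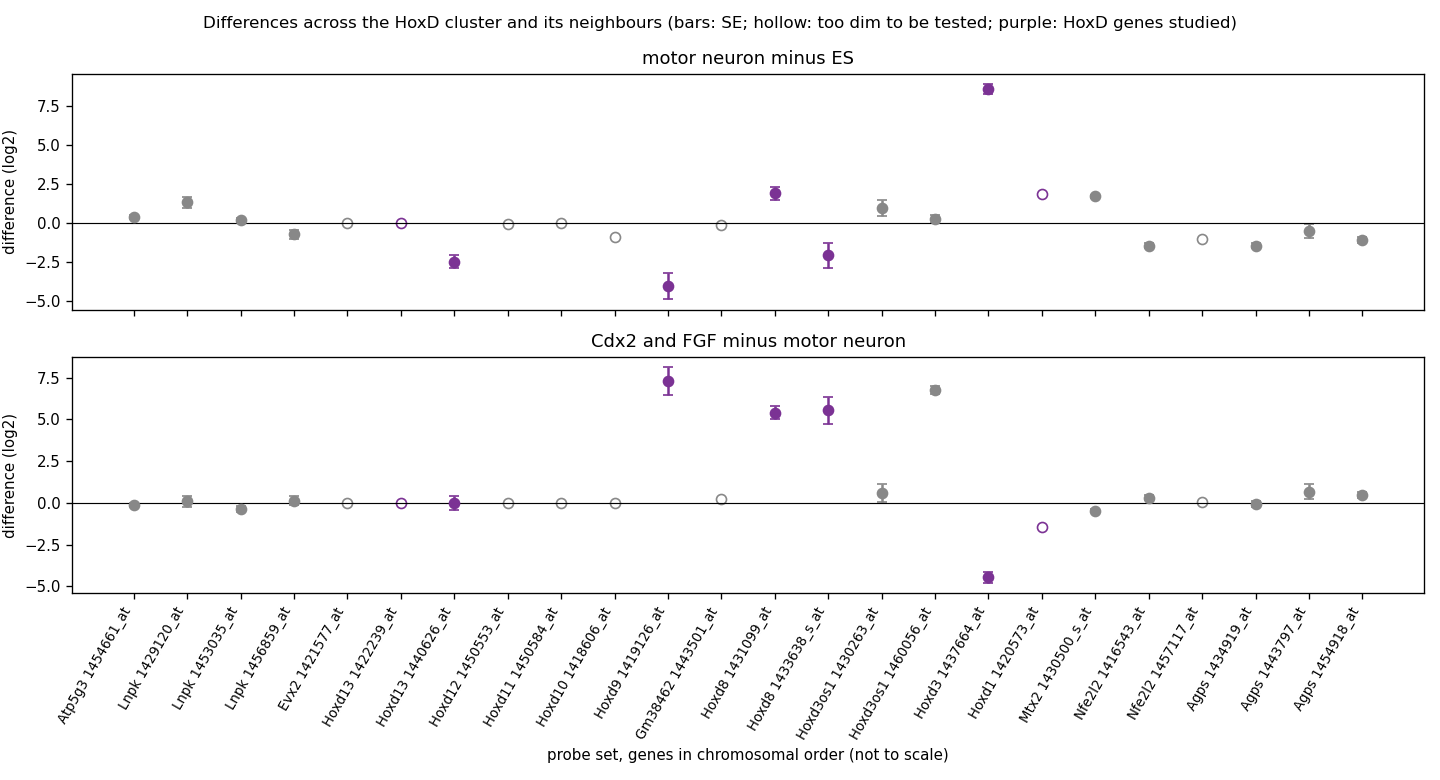
Log2 difference of each probe set across the HoxD cluster and the nearest 3 listed genes with a probe set on either side, for motor neuron minus ES (top) and Cdx2 and FGF minus motor neuron (bottom); genes follow chromosomal order, not distance, bars are SE and hollow points were too dim to be tested. In the lower panel Hoxd9, Hoxd8 and 1 Hoxd3os1 probe set rise by 5.41 to 7.28, Hoxd3 lies at -4.46, and the 3 Lnpk probe sets and Mtx2 lie within 0.47 of 0.

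Read in chromosomal order, the values changed sign within the cluster. Evx2, next to Hoxd13, and Hoxd11 read 2.17 on all 9 arrays, and Hoxd12 reached no more than 2.38. Hoxd10 read 4.87 on ES array 2 and at most 2.22 elsewhere. The rise with Cdx2 and FGF was seen at Hoxd9 and Hoxd8, with Hoxd10 to Hoxd13 on one side at the floor in both kinds of day 5 culture and Hoxd3 on the other side falling.

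Between Hoxd8 and Hoxd3 the gene table lists Hoxd3os1, a non-coding gene on the opposite strand whose span overlaps that of Hoxd3. Its probe set 1460056_at gave 2.28, 2.17 and 2.27 in ES cells, 2.58, 2.39 and 2.47 after RA and SAG alone, but 9.52, 8.8 and 9.5 after Cdx2 and FGF. Only the Cdx2/FGF arrays were over 4, so it entered the test through them. Its level was thus at least 38.6-fold higher than in motor neuron cultures (log2 difference 6.79, SE 0.24, limma adjusted p = 1.77e-07), opposite to that of Hoxd3. A further probe set of the gene, 1430263_at, went from 4.66, 3.21 and 2.99 with RA and SAG to 4.92, 3.21 and 4.56 in Cdx2/FGF cultures, which overlap (adjusted p = 0.473). Gm38462, which lies between Hoxd9 and Hoxd8, read at most 2.82 on any array; it was added after its values were seen.

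The nearest genes outside the cluster were not called between the day 5 cultures. Of 15 tested genes of the flank list, which includes Hoxd3os1, 3 were higher and 0 lower, with a median log2 difference of -0.12 (0 with values under 4 raised to 4) against 0.04 over all tested probe sets. Mtx2, a mitochondrial import gene and the neighbour beyond Hoxd1, went from 11.97, 11.84 and 11.89 with RA and SAG to 11.47, 11.47 and 11.35 when Cdx2 and FGF were added (log2 difference -0.47, adjusted p = 0.00766, under the size limit of 1). Lnpk, an endoplasmic reticulum gene beyond Evx2, had differences of 0.11, -0.35 and 0.13 in its 3 probe sets, none of them called. Atp5g3, Nfe2l2 and Agps had differences of -0.12, 0.31 and 0.49 at their brightest probe sets and no call. Against ES cells, Mtx2 was 3.24-fold higher in motor neuron cultures (adjusted p = 4.77e-07), while Nfe2l2 and Agps were lower (log2 differences -1.45 and -1.09).

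Cdx4, a relative of Cdx2 in the same family, read 2.17 on every ES and motor neuron array and 5.31, 6.06 and 5.46 with Cdx2 and FGF, at least 3.05-fold higher than in motor neuron cultures (adjusted p = 4.76e-06). It entered the test through the Cdx2/FGF arrays alone, so it could only come out higher, and the same holds for Cdx2 probe set 1422074_at. Cdx1 read 2.17 on all 9 arrays.

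**Figure D3:**
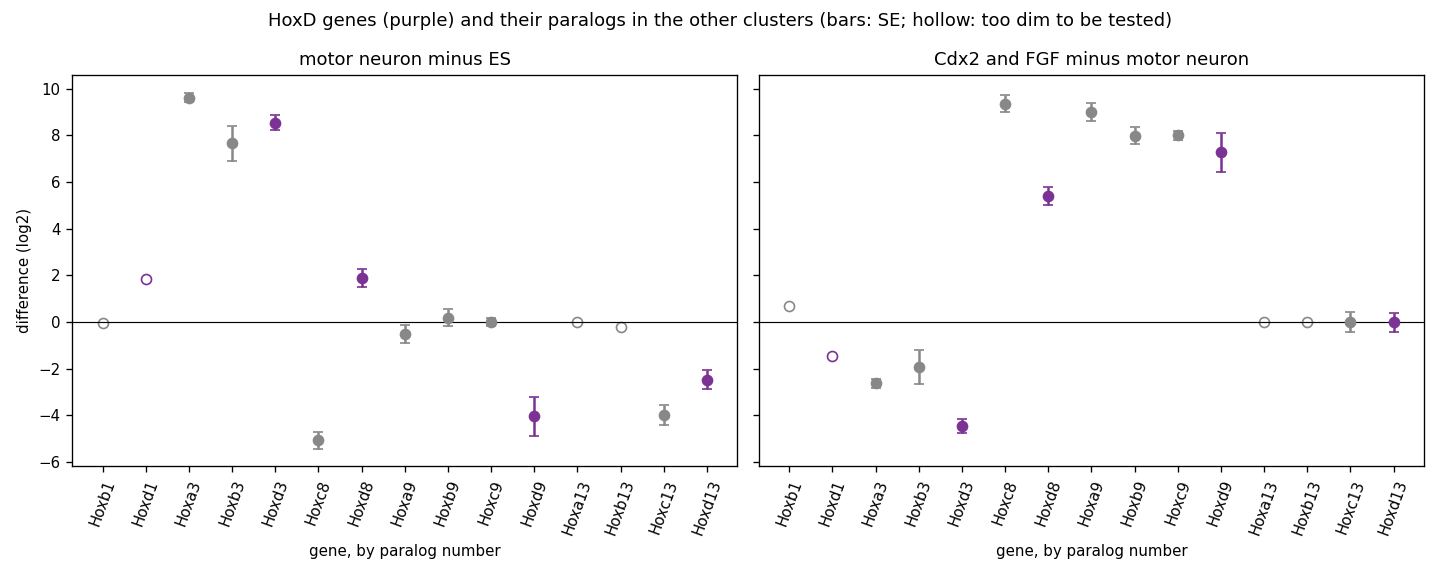
Log2 difference of the HoxD genes (purple) and of their paralogs in the HoxA, HoxB and HoxC clusters (grey) for motor neuron minus ES (left) and Cdx2 and FGF minus motor neuron (right), at the probe set of each gene with the highest mean; bars are SE and hollow points were too dim to be tested. Differences are of values as deposited, including those under 4, so that sizes against such groups give no order. On the right, groups 8 and 9 lie between 5.41 and 9.35, group 3 between -4.46 and -1.92, and group 13 at 0.

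The HoxD genes were set beside their paralogs in the other clusters, each gene at its probe set with the highest mean. In group 3, Hoxa3 and Hoxb3 rose at least 389-fold and 144-fold from ES cells to motor neuron cultures, beside at least 106-fold for Hoxd3; as bounds, these give no order. With Cdx2 and FGF, Hoxa3 fell by 2.63 (SE 0.21, adjusted p = 2.12e-05), while Hoxb3 had a difference of -1.92 (SE 0.73, adjusted p = 0.08), beside -4.46 for Hoxd3. The other probe set of Hoxb3, 1427605_at, was called lower at -2.23. No test was made of the differences between paralogs.

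In group 8, the ES arrays gave 6.47, 7.87 and 7.77 for Hoxc8, each motor neuron array 2.31, and the Cdx2/FGF arrays 11.62, 11.55 and 11.8. It rose at least 202-fold with Cdx2 and FGF (adjusted p = 2.57e-07), where the Hoxd8 probe sets rose 42.4-fold and at least 25.1-fold. In group 9, Hoxa9, Hoxb9 and Hoxc9 rose at least 143-fold, 106-fold and 71.9-fold over motor neuron cultures, beside at least 57.7-fold for Hoxd9, all of them bounds. Their 3 arrays spread less with Cdx2 and FGF: the SD was 0.09 for Hoxa9, 0.07 for Hoxb9 and 0.03 for Hoxc9, against 1.24 for Hoxd9. These genes lay under 4 on all ES arrays, whereas Hoxd9 was over 4 on all 3. In group 13, Hoxc13, like Hoxd13, was over 4 in ES cells only, at 5.48, 7.31 and 5.62 on the ES arrays and 2.17 on every day 5 array, while Hoxa13 and Hoxb13 were under 4 throughout. In group 1, Hoxb1 was over 4 on 1 array, at 4.27 with Cdx2 and FGF.

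Across the other clusters, 10 of 10 tested Hox genes of paralogs 1 to 5 were higher in motor neuron cultures than in ES cells. With Cdx2 and FGF, 9 of the 10 were lower than in motor neuron cultures, as Hoxd3 was. The shares of all tested probe sets were 31.9% higher in the first comparison and 8.55% lower in the second. Every ES value of Hoxa2, Hoxa3, Hoxa5, Hoxb2, Hoxb4, Hoxb5 and Hoxc5 was below 4. These genes passed the filter through day 5 arrays, so no lower call above that limit against ES cells was possible. Of 7 tested genes of paralogs 6 to 9, 5 were higher and 1 lower with Cdx2 and FGF, with a median log2 difference of 7.99, or 6.17 with values under 4 raised to 4. Of the 5 that were higher, Hoxa7, Hoxa9, Hoxb9 and Hoxc9 were over 4 in Cdx2/FGF cultures only. They thus entered the test through that group and could only come out higher. The remaining gene, Hoxc8, lay under 4 on all motor neuron arrays, so no lower call above that limit was possible. Of 6 genes of paralogs 10 to 13 only Hoxc13 was tested.

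**Figure D4:**
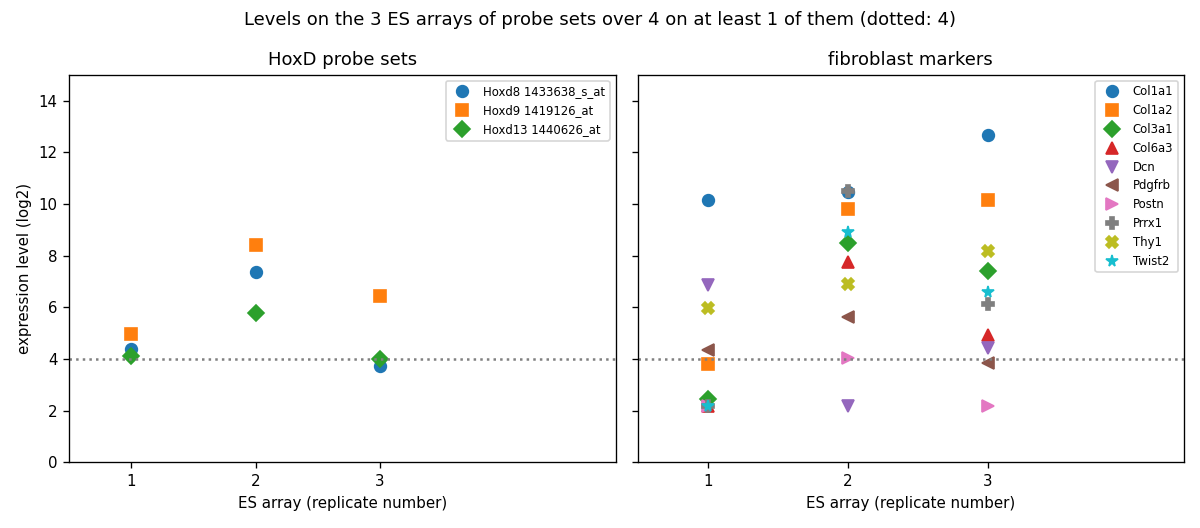
Expression level (log2) on each of the 3 ES arrays of the HoxD probe sets (left) and fibroblast markers (right) that lay over 4 on at least 1 ES array; the dotted line is the limit of 4. ES array 2 is highest for all 3 HoxD probe sets and for 6 of the 10 markers, and ES array 1 is lowest for 8 of the markers.

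The ES arrays, made from cells grown on fibroblasts, differed among themselves both in the caudal HoxD genes and in fibroblast genes. Hoxd9, Hoxd13 (1440626_at) and Hoxd8 (1433638_s_at) were all highest on ES array 2. Of 11 fibroblast markers with a probe set, 10 were over 4 on at least 1 ES array, and 6 of these were highest on array 2, 3 on array 3 and 1 on array 1. Prrx1, a limb and connective tissue factor gene, read 2.17, 10.51 and 6.11 on the ES arrays, and Twist2, a factor of mesenchyme and dermis, read 2.19, 8.93 and 6.58. Both had the same order over the arrays as Hoxd9 (4.97, 8.42 and 6.43), whereas Dcn, a matrix proteoglycan gene, ran the opposite way at 6.85, 2.17 and 4.41. ES array 1 was lowest for 8 of the 10 fibroblast markers but for only 1 of the 3 HoxD probe sets, the other 2 being lowest on array 3.

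The summed level of the fibroblast list was 10.42, 12.29 and 13.04 on ES arrays 1, 2 and 3, led by the collagen gene Col1a1, which was highest on array 3 at 12.68. It was 5.96 to 5.99 in motor neuron cultures, where all 11 markers lay under 4, and 10.39 to 10.71 in Cdx2/FGF cultures, where 6 did, among them Thy1, Prrx1 and Dcn. Against motor neuron cultures 4 of 6 tested markers were higher with Cdx2 and FGF and 0 lower. All lay under 4 in motor neuron cultures, so they entered the test through other groups and no lower call above that limit was possible. Of 5 endoderm markers 2 were tested, with 1 lower in that comparison, and their summed level was 4.65 to 5.89 over all arrays. The gene called lower, Gata6, was over 4 in motor neuron cultures only, so it could only come out lower. The part of the fibroblast layer in the ES levels of HoxD genes was not tested.

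The genes with the patterns nearest to those of the members were sought among 10602 named genes, leaving out clone and predicted names, by the root mean square (RMS) difference of mean-centred log2 values over the 9 arrays. Nearest to Hoxd3 were Ebf3, a neuronal transcription factor gene (RMS 0.39), Scg3, of secretory granules (0.43), and Map2, a dendritic microtubule protein gene (0.44). Among Hox genes they were Hoxa5 (0.59), Hoxc5 (0.63) and Hoxa3 (0.82). For Hoxd8 (1431099_at) they were Creb3l2 (0.39), the semaphorin gene Sema3c (0.61) and Fbxl7 (0.67), and among Hox genes Hoxc9 (1.18), Hoxa9 (1.22) and Hoxb9 (1.24).

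For Hoxd9 the nearest genes were Tgfbi, an extracellular matrix gene (RMS 0.75), the receptor gene Calcrl (0.93) and Sema3c through another probe set (0.94). The Hox probe set nearest to Hoxd9 was 1433638_s_at of its neighbour Hoxd8 (1.16), followed by Hoxc8 (1.18) and Hoxc6 (2.06). Hoxd13 was close to probe sets of Cnot3 (0.08), Mastl (0.11) and Arhgap26 (0.12), and among Hox genes to Hoxc13 (0.71). The Cnot3 probe set too was dim, with mean levels of 4.89 in ES cells against 2.42 after RA and SAG alone. Arrays of a group share their treatment, so nearness over 9 arrays rests largely on 3 group means.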

How the data were processed

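RNA was amplified with a NuGEN Ovation kit, per the labels' protocols. The submitters' processing notes name GCRMA, which corrects background and normalizes between arrays, and limma, with no versions. The values deposited by the authors are on a log2 scale, 1 per probe set and array; no source states the scale, which was inferred from their range. They were used without further normalization, and precision is limited by the number of arrays. Of 45101 probe sets, 34958 named 1 gene, 932 several and 9211 none here; 34754 matched by Entrez identifier in the GRCm38.p6 gene table, used for names and gene order.

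Because members are defined by probe set, every tested probe set was fitted, not 1 per gene. The fit was limma 3.58.1 in R 4.3.3 (lmFit on 3 group means, eBayes with trend). It was also tried on simulated data, with changes planted only in probe sets bright in motor neuron cultures. The planted changes did not cover probe sets dim there, such as that of Hoxd9. Lists are counted at each gene's probe set with the highest mean. Promoters came from RefSeq tables. The members, lists and tests were chosen with earlier results of these data known. Named genes were the members, their paralogs, Cdx genes, the nearest 3 flank genes on each side, the 3 nearest patterns per tested member, and markers. Alternatives were 1 value per gene, renormalization, other filters, priors, weights and array subsets.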

Additional observations from a re-analysis of the deposited data

Results flagged for a closer look

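A pair of probe sets annotated to more than 1 gene of the HoxD cluster, with a member among them, was not used for any gene but held a signal well above that of ES cells. The brighter averaged 11.3 in motor neuron cultures, against 2.21 in ES cells and 7.49 in Cdx2/FGF cultures. The dimmer averaged 8.87, against 2.22 and 4.82. Both were higher in motor neuron cultures than in ES cells and lower with Cdx2 and FGF than in motor neuron cultures (log2 differences -3.82 and -4.06, limma adjusted p = 4.08e-06 and 1.21e-06). They cannot be assigned to a single gene. No other result was singled out; groups of 3 arrays are too small for an outlier test.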

How the results depend on the processing

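Hoxd3, Hoxd8 (1431099_at) and Hoxd9 kept direction and call between the day 5 cultures, and against ES cells in Cdx2/FGF cultures, under all 21 alternatives run, as did Hoxd8 (1433638_s_at) under 20. Between motor neuron cultures and ES cells, Hoxd3 and Hoxd9 kept theirs under 21. There, Hoxd8 (1431099_at) reversed to -0.08 when a gene's probe sets were averaged, and its call ended with low values raised (0.89) and array weights (1.8). Hoxd8 (1433638_s_at) lost its call when they were averaged (-0.08), with quantile normalization again (-1.83), median centring (-1.64), no filter (-2.06), low values raised (-1.25), only the 6 arrays compared (-2.06) and 7 of 9 array omissions, over which it ran from -2.77 to -0.96. Hoxd13 lost its calls against ES cells with low values raised (-0.63 in both), and was not testable without an ES array, with a filter at 6, after rescaling or when probe sets were averaged, since fewer than 3 arrays then passed the filter. The causes were not tested. The gap between the Hoxd8 probe sets with low values raised was added after seeing the data.

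With 1 probe set per gene, calls over the table went from 12909, 4185 and 12089 to 6172, 2159 and 5745 (motor neuron against ES, Cdx2/FGF against motor neuron, Cdx2/FGF against ES), and when a gene's probe sets were averaged to 5451, 1879 and 5033, since fewer features were tested. Median centring moved the share of higher calls against ES cells from 53.3% to 64.3% in motor neuron cultures and from 56% to 68.3% in Cdx2/FGF cultures, and the median difference of all probe sets from 0.1 to 0.53 and from 0.14 to 0.58. The members tested there kept their signs.

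Replicate numbers did not pair the arrays: deviations of same-numbered arrays correlated at -0.028 to 0.106. With the replicate block, Hoxd9 rose by 7.28 over motor neuron cultures (adjusted p = 0.000804), no member's call changed, and 4126 probe sets were called in that comparison, against 4185.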

Other observations

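Further from the cluster, a few genes of the flank list differed between the groups; they were picked out after their values were seen. Chn1, which codes for a Rac-regulating protein of axon guidance, was 12.1-fold higher in motor neuron cultures than in ES cells (limma adjusted p = 2.91e-07). The 3 probe sets of Scrn3 differed in size: against ES cells, motor neuron cultures were 32.3-fold lower for 1436573_at and 3.93-fold lower for 1426917_s_at, while 1426916_at (1.66-fold) was not called. With Cdx2 and FGF the first 2 were 2.53-fold and 2.21-fold higher than in motor neuron cultures, and the last (1.67-fold) was not called. Osbpl6, an oxysterol-binding protein gene, was at least 1.47-fold and then 3.09-fold higher in the same comparisons.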
